A study of Mus musculus with 6 samples.

Results

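Cd68 and 36 other genes of the lysosome were followed through RNA-seq of mouse bone marrow hematopoietic stem cells (HSCs) with and without Med23, a subunit of the mediator complex that links transcription factors to RNA polymerase II. The 37 genes were chosen by name, as textbook lysosomal membrane proteins, enzymes, lipid carriers and regulators, and all 37 were found among the 34745 genes of the deposited tables. The comparison asked whether Cd68 differed between the genotypes alone or together with the rest of the lysosome.

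The libraries came from 3 WT samples (genotype Med23floxp/flowp in the labels' spelling) and 3 KO samples (Mx1-cre;Med23floxp/flowp), all from adult C57BL/6 mice. Both groups carry the floxed Med23 allele, and the KO group also carries Mx1-cre, a recombinase transgene driven by an interferon-responsive promoter that is switched on by poly(I:C). Whether the WT donors of these libraries also received poly(I:C), and how old the mice were, is not given in the sources used here. The cells were sorted as LSK CD150+CD34-CD48-, a gate for long-term HSCs, from bone marrow. Nothing states that the replicates were separate animals, so the p-values measure the spread between these samples, which may be technical in part. By sex-linked RNA (counts below), replicate 3 of each group was female and replicates 1 and 2 were male. The replicates of a group therefore did not all come from the same animal. Whether replicates 1 and 2 were separate animals is not known.

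Lysosomes are acidic organelles in which hydrolases break down proteins, glycans and lipids delivered by endocytosis, phagocytosis and autophagy. Their limiting membrane is coated with glycosylated LAMP proteins, and CD68 is a LAMP family member that is abundant in macrophages and is used as a marker of them. The transcription factors TFEB and TFE3 bind an E-box in the promoters of many lysosomal genes, known as the CLEAR element, and can switch on these genes together. In HSCs, lysosomal activity has been linked to quiescence.

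The promoters of Cd68 and Lamp1 are shown because Lamp1 carries the core of this element and Cd68 does not. Each is the 250 bases before the RefSeq start (build GRCm38.p6), 5′ to 3′ on the strand of the gene, with every CACGTG in capitals. The Cd68 stretch is chr11:69666171-69666420 on the minus strand and the Lamp1 stretch is chr8:13158911-13159160 on the plus strand.
Cd68: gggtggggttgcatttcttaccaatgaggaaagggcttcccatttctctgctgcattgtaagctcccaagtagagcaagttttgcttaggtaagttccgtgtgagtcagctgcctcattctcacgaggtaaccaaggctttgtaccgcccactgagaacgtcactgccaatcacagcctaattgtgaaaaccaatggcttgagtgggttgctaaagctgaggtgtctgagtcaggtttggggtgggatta
Lamp1: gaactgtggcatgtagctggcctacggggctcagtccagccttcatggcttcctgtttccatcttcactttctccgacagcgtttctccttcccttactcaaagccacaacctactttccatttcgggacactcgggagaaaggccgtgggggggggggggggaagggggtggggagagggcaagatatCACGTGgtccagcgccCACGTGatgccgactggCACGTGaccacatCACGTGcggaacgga

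The Cd68 stretch held no CACGTG, and the Lamp1 stretch held 4 copies, the farthest beginning 61 bases and the nearest 15 bases before the start. In windows from 250 bases before to 50 bases after the start, 6 of 27025 genes with a RefSeq window (0.0222%) had at least 4 copies. Of the 37 genes, 33 had a window, and Npc1, Ctsb, Ctsh and Asah1 had none in the table. CACGTG, which reads the same on both strands, was in the window of 11 of these 33 genes (33.3%), against 8.09% of all genes. The carriers were Lamp1, Mcoln1, Ctsa, Ctsd, Ctsl, Lgmn, Gaa, Gla, Glb1, Naglu and Arsa. The longer TCACGTGA, which contains CACGTG, was in 4 of the 33 (12.1%), namely Mcoln1, Ctsa, Ctsd and Gla, against 1.12% of all genes. GAGGAAGT, a PU.1-type ETS motif searched on both strands, was in 3 of the 33 (9.09%), namely Ctss, Gla and Gusb, against 3.69% of all genes. None of these 3 motifs was in the Cd68 window. These are matches of letters only and say nothing of binding in these cells.

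The count tables held 3537269 to 8131344 counts per library. Across all 12513 genes that passed the filter on low counts, 9 passed an adjusted p of 0.05 in edgeR's quasi-likelihood test. Of these, 2 were higher and 7 lower in KO, and 3 of the 7 were skeletal muscle genes from a list described below. Med23 itself was at 47.4, 70.5 and 24.0 CPM (the count scaled to the size of its library, with edgeR's TMM factors) in the libraries labelled WT replicate 1, 2 and 3 and at 31.5, 29.7 and 36.7 CPM in KO. The library labelled WT replicate 3 was therefore below all 3 KO libraries, so the gene-level count did not separate the labels, on which every direction given here rests (log2 fold change -0.54, SE 0.41, edgeR adjusted p = 0.989). A gene-level count also holds exons outside the deleted part. Why the library labelled WT replicate 3 was low in Med23 was not tested. Replicate 3 of both groups also differed from the others in sex-linked genes (Xist at 4819 and 7853 counts, against 8 to 111 in the other 4 libraries), so values without these libraries are given where they matter. Summed counts of 4 Y-linked genes were 1 and 0 in replicate 3 of WT and KO, against 1036 to 1855 in the other 4 libraries. The 12 HSC markers summed to 2880 to 3380 CPM in WT and 2890 to 3100 CPM in KO, and all 12 passed the filter. Of these, Kit, Ly6a, Hlf and Esam were lower and Mecom was higher in every KO library, against 6.15% lower and 6.25% higher over all genes tested. At an unadjusted p under 0.05 in edgeR, 3 were lower and 2 higher, against 2.77% and 2.94% of all genes, with 0 past the adjusted p. Cd48, which the gate excludes, had 10, 28 and 0 counts in WT and 0 in each KO library, whereas Cd34 mRNA was present in every library at 294 to 518 CPM.

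Of the 36 tested members, Cd68 had the largest fitted difference. Its level was 14.1, 22.9 and 40.6 CPM in the libraries labelled WT replicate 1, 2 and 3 (69, 187 and 132 counts). In KO it was 60.3, 71.6 and 93.5 CPM (299, 395 and 464 counts). Every KO library was above every WT library, and the highest WT value came from the library labelled WT replicate 3. The means were 25.9 ± 13.5 CPM in WT and 75.1 ± 16.9 CPM in KO (SD, n = 3 each), a 2.90-fold difference. The fitted log2 fold change was 1.55 (SE 0.41). It did not pass the test over all genes in edgeR (unadjusted p = 0.0037, adjusted p = 0.417), and it did in DESeq2 (log2 fold change 1.54, adjusted p = 0.0432). The exact two-sided permutation test of log2(CPM + 0.5) gave p = 0.1, the smallest that 3 against 3 samples allow. The study names Cd68 among myeloid genes from these libraries, so its direction here is not independent evidence.

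Paired by replicate number, the fold of KO over WT was 4.28, 3.13 and 2.30. With replicates 1 and 2 only, which do not differ in sex-linked genes, the log2 fold change was 1.84 (edgeR adjusted p = 0.554). It was 2.02 without the library labelled WT replicate 3 (edgeR adjusted p = 0.294). In bulk RNA, more cells that express Cd68 and more Cd68 RNA per cell cannot be told apart.

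Cd68 (ENSMUSG00000018774) lies on chromosome 11 from 69664213 to 69666153 on the minus strand (GRCm38, GENCODE M21), and none of its exon bases is shared with another annotated gene. The length implied by the ratio of its count to its FPKM was 2067 bases, against 1257 exon bases in GENCODE M21. The annotation behind the counts and the definition of this length are not given in the sources used here. Eif4a1, a translation initiation factor gene on the same strand, starts upstream and ends before Cd68, at position 69666936. It was named for this position alone and was at 436, 400 and 359 CPM in WT and 353, 250 and 378 CPM in KO (log2 fold change -0.28, edgeR adjusted p = 0.989), the opposite sign to Cd68.

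**Figure D1:**
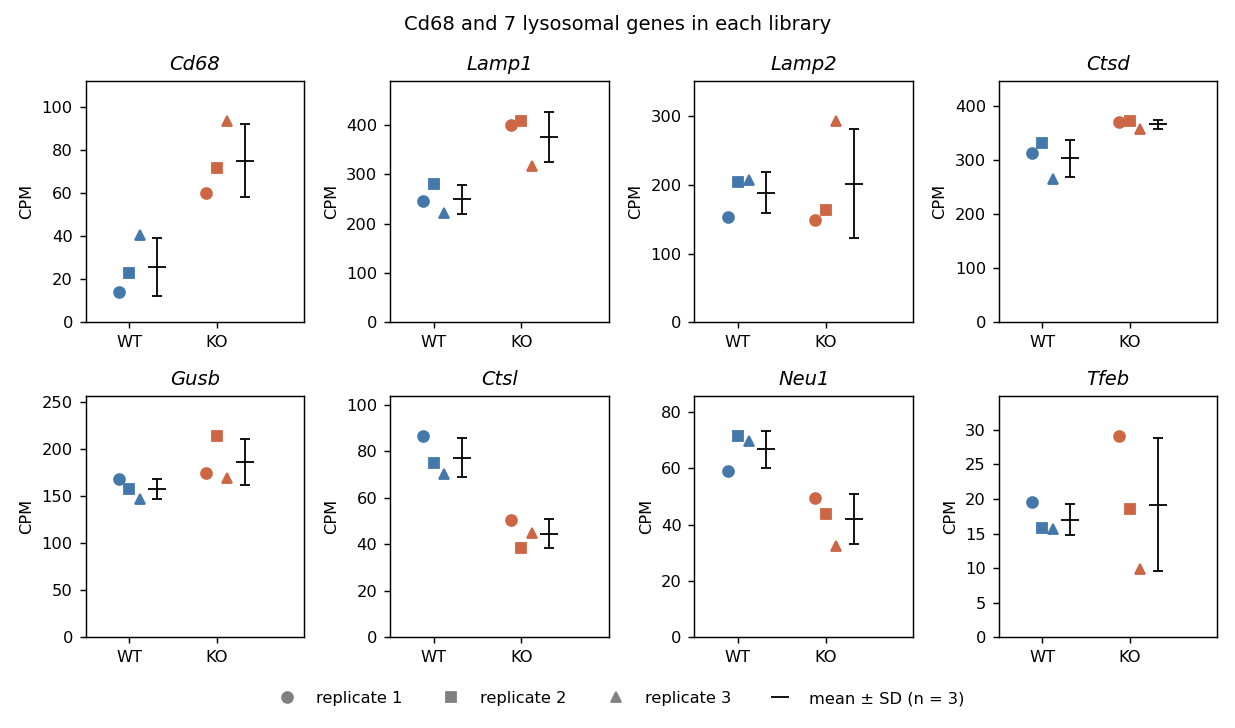
Level in CPM (vertical axes, linear from 0) of Cd68 and 7 other lysosomal genes in the 3 WT (blue) and 3 KO (orange) libraries, with the replicate number as the symbol and mean ± SD beside. Cd68, Lamp1, Ctsd and Gusb are higher in every KO library, Ctsl and Neu1 are lower in every KO library, and Lamp2 and Tfeb overlap.

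Of the 36 members that passed the filter, 0 passed the adjusted p of 0.05 in edgeR, against 0.0719% of all genes tested. Without adjustment, 2 members were higher (Cd68 and Lamp1) and 2 were lower (Ctsl and Neu1) at p under 0.05, against 2.94% higher and 2.77% lower over all genes. In DESeq2, 1 member passed (Cd68), against 0.984% of the 15148 genes with an adjusted p, and limma on log2 FPKM called 0 under each of its 3 settings. The KO and WT values did not overlap for 4 members that were higher (Cd68, Lamp1, Ctsd and Gusb), against 6.25% of all genes, and for 2 that were lower (Ctsl and Neu1), against 6.15% of all genes. The other 30 overlapped. Gla, the α-galactosidase gene, was the member that failed the filter, with 25, 25 and 3 counts in WT and 8, 5 and 9 counts in KO.

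Most of the other members had estimates near 0. Over the 35 tested members other than Cd68, the median log2 fold change was 0.15, against -0.01 over all genes tested. The estimate was above 0 for 24 of the 35 (68.6%), against 49.5% of all genes. For 30 of the 35 it lay within 0.5 of 0 on the log2 scale, against 8694 of all 12513 genes tested. The range over the 35 was from -0.79 (Ctsl) to 0.98 (Galc). The median was 0.08 without the library labelled WT replicate 3 and also 0.08 without KO replicate 1, lower by over 1.5 times in both cases. No test is given for the list, whose members were chosen by function with results of these libraries known.

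**Figure D2:**
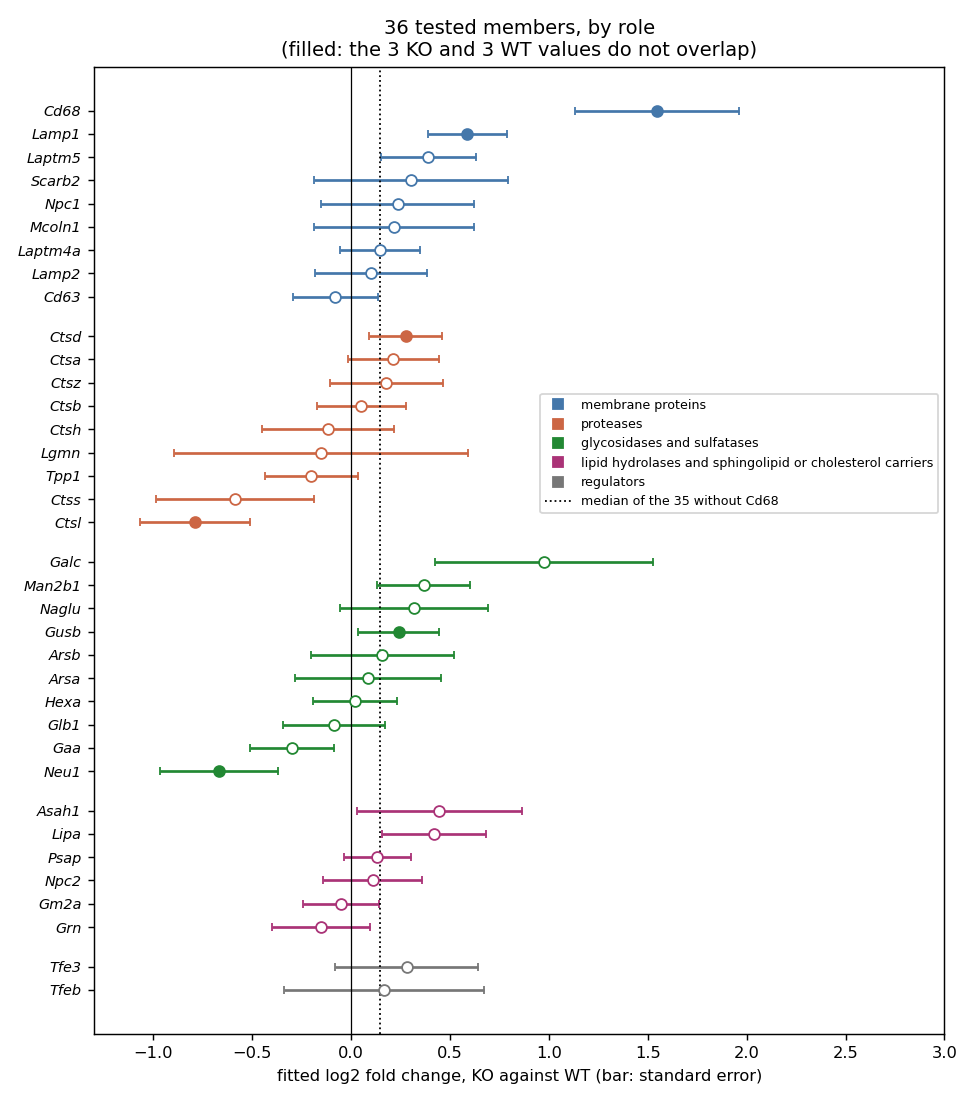
Fitted log2 fold change of KO against WT (horizontal axis, bars are standard errors) of the 36 tested members, grouped by role, with filled symbols where the 3 KO and 3 WT values do not overlap and a dotted line at the median of the 35 members without Cd68. Cd68 at 1.55 has the largest estimate, and 30 of the other 35 lie within 0.5 of 0.

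Among the 9 membrane proteins, 8 had an estimate above 0, with a median log2 fold change of 0.24. Lamp1, a major LAMP protein of the lysosomal membrane, was at 246, 280 and 222 CPM in WT and 401, 408 and 317 CPM in KO. All 3 KO libraries were above all 3 WT libraries, and the pairs by replicate number gave folds of 1.63, 1.45 and 1.43. Lamp1 averaged 249 ± 29.3 CPM in WT and 375 ± 50.6 CPM in KO (SD, n = 3 each), a log2 fold change of 0.59 (SE 0.20, unadjusted p = 0.0145, edgeR adjusted p = 0.663). Of its exon bases, 9.31% are shared with Grtp1 on the other strand.

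Lamp2, the related protein required for fusion of autophagosomes with lysosomes, was at 154, 205 and 208 CPM in WT and 149, 164 and 293 CPM in KO. Its groups overlapped, with KO replicate 3 the highest and KO replicate 1 the lowest of all 6 libraries. The log2 fold change was 0.10 (SE 0.28, edgeR adjusted p = 0.997), and it was -0.27 without KO replicate 3.

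Cd63, a tetraspanin of late endosomes and lysosomes and among the 3 members of highest mean FPKM, was at 193, 167 and 226 CPM in WT and 156, 205 and 192 CPM in KO, with overlapping groups (log2 fold change -0.08, SE 0.21). Laptm4a, a membrane protein of late endosomes and the member of highest mean FPKM, was at 490, 386 and 365 CPM in WT and 511, 392 and 472 CPM in KO (log2 fold change 0.15, SE 0.20). The other 4 membrane proteins were Scarb2, the receptor that carries β-glucocerebrosidase, the cholesterol exporter Npc1, the calcium channel Mcoln1 and the hematopoietic protein Laptm5. Their log2 fold changes lay between 0.22 (Mcoln1) and 0.39 (Laptm5), and all 4 overlapped between the groups.

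The Cd68 values were set against those of Lamp1 and Lamp2 within each library, which needs no scaling between libraries. Cd68 counts were 5.73%, 8.17% and 18.3% of Lamp1 counts in WT and 15.0%, 17.6% and 29.5% in KO. These overlapped through the library labelled WT replicate 3. The mean log2 ratio was 1.06 higher in KO, a 2.09-fold difference (exact two-sided permutation test, p = 0.3, n = 3 each), and 1.54 higher without the library labelled WT replicate 3. Against Lamp2, Cd68 counts were 9.16%, 11.2% and 19.5% in WT and 40.4%, 43.7% and 31.9% in KO, with no overlap. That log2 ratio was 1.60 higher in KO, a 3.04-fold difference (exact two-sided permutation test, p = 0.1, the smallest possible with n = 3 each).

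**Figure D3:**
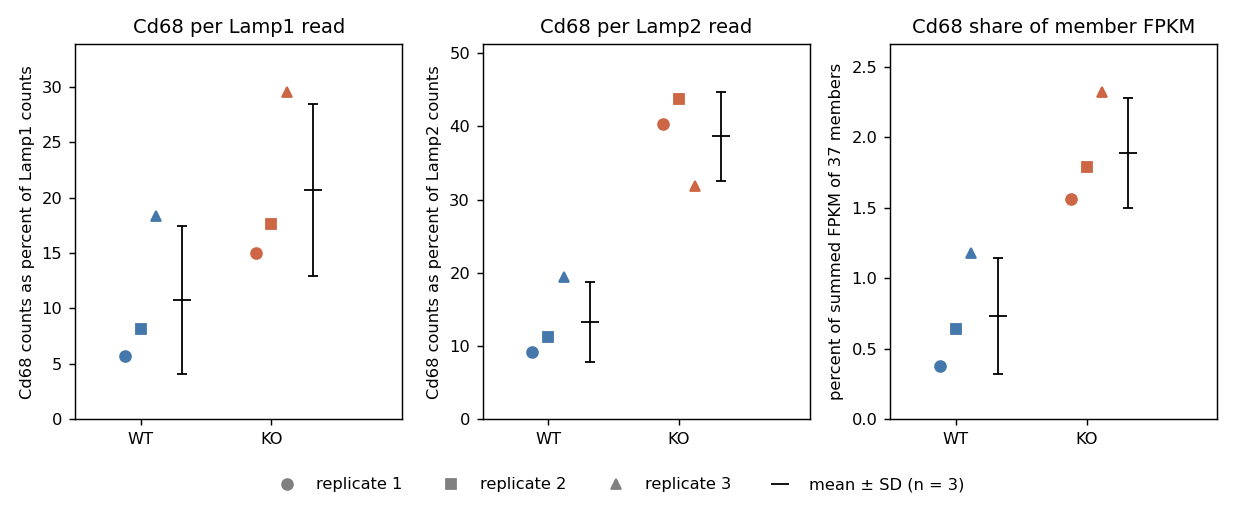
Cd68 counts as a percent of Lamp1 counts (left) and of Lamp2 counts (middle), and Cd68 as a percent of the summed FPKM of all 37 members (right), in each WT (blue) and KO (orange) library, with mean ± SD beside. The ratio to Lamp1 overlaps through the library labelled WT replicate 3 at 18.3%, and the ratio to Lamp2 and the share do not overlap.

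Levels between genes were compared per length, as the FPKM of the deposited table. Cd68 was at 7.03, 11.1 and 18.1 FPKM in WT and 30.4, 36.2 and 43.7 FPKM in KO, and by mean FPKM it ranked 24 of 37 in WT and 15 of 37 in KO. Its share of the summed FPKM of all members was 0.376%, 0.644% and 1.18% in WT and 1.56%, 1.79% and 2.32% in KO, with no overlap. The summed FPKM of the other 36 members was 1860, 1715 and 1517 in WT and 1920, 1984 and 1844 in KO. Here the groups overlapped, with WT replicate 1 above KO replicate 3. The FPKM is scaled to the column total alone, unlike the CPM. The TMM factors, which would lower WT replicate 1 (1.031) and raise KO replicate 3 (0.967), were not applied. This overlap therefore depends on the scaling. As a share of all counts, without weighting by length, the same 36 were at 0.6%, 0.589% and 0.524% in WT. In KO this share was 0.644%, 0.679% and 0.642%, so by counts the groups did not overlap. Neither difference was tested. The highest mean FPKM over all 6 libraries belonged to Laptm4a (247), Psap (189) and Cd63 (184), and the lowest to Gla (0.678). A length other than the one the authors used would move these ranks, the summed FPKM and the share of Cd68. It would not move the fold of a single gene between groups.

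**Figure D4:**
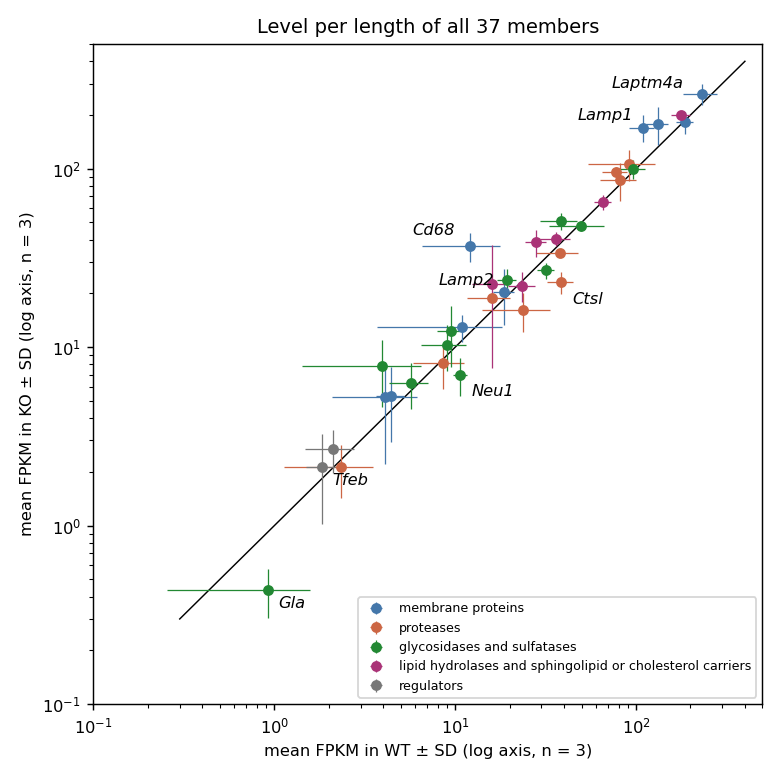
Mean FPKM in KO (vertical log axis) against mean FPKM in WT (horizontal log axis) of all 37 members, with SD bars (n = 3 each), colours by role and a line of equal level. Cd68 lies above the line at 12.1 FPKM in WT and 36.8 FPKM in KO, Ctsl and Neu1 lie below it, and Gla is the lowest.

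The 9 proteases did not share a direction, with 4 estimates above 0, 5 below and a median log2 fold change of -0.12. Ctsd, the main aspartyl protease of the lysosome, was at 312, 330 and 265 CPM in WT and 370, 371 and 356 CPM in KO. The KO libraries were all higher, by a log2 fold change of 0.28 (SE 0.18, edgeR adjusted p = 0.989). In GENCODE M21, 34.4% of the Ctsd exon bases are shared with Gm49369 on the same strand, so its count is uncertain.

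Ctsl, the cysteine protease cathepsin L, was at 86.6, 74.9 and 70.2 CPM in WT and 50.6, 38.4 and 44.9 CPM in KO. All 3 KO libraries lay below all 3 WT libraries, with means of 77.2 ± 8.44 CPM and 44.7 ± 6.11 CPM (SD, n = 3 each). The log2 fold change was -0.79 (SE 0.28, unadjusted p = 0.0168, edgeR adjusted p = 0.696), the lowest of the 36 tested members. Ctsl shares 26.8% of its exon bases on the other strand and 6.09% on its own strand with Gm47123 and Gm49230. The remaining 7 proteases, which were the carboxypeptidases Ctsa and Ctsz, the cysteine proteases Ctsb, Ctsh, Ctss and Lgmn and the tripeptidyl peptidase Tpp1, overlapped between the groups, with log2 fold changes from -0.59 (Ctss) to 0.21 (Ctsa).

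Among the 10 tested glycosidases and sulfatases, 7 estimates were above 0 and the median log2 fold change was 0.12. Gusb, the β-glucuronidase, was at 168, 158 and 147 CPM in WT and 175, 214 and 169 CPM in KO. Its groups were apart by little, 168 CPM being the highest WT value and 169 CPM the lowest KO value (log2 fold change 0.24, SE 0.20, edgeR adjusted p = 0.989). Neu1, the sialidase of the lysosome, was at 59.0, 71.4 and 69.6 CPM in WT and 49.6, 43.9 and 32.4 CPM in KO. Every KO library was below every WT library (log2 fold change -0.67, SE 0.30, unadjusted p = 0.0491, edgeR adjusted p = 0.871). Galc, the galactosylceramidase, is named after its values were seen because its estimate was the largest after Cd68. It was at 24.7, 13.2 and 7.08 CPM in WT and 18.4, 26.3 and 44.3 CPM in KO, with overlapping groups (log2 fold change 0.98, SE 0.55, edgeR adjusted p = 0.95). The other 7 tested members of this role had log2 fold changes from -0.30 (Gaa, the acid α-glucosidase) to 0.37 (Man2b1, the acid α-mannosidase) and overlapped.

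The 6 genes of lipid breakdown and of sphingolipid or cholesterol carriage all overlapped between the groups, with a median log2 fold change of 0.12. Psap, the precursor of the saposins that present sphingolipids to their hydrolases, was at 679, 790 and 683 CPM in WT and 805, 745 and 810 CPM in KO (log2 fold change 0.13, SE 0.17). The other 5 ranged from -0.15 (Grn, the progranulin gene) to 0.45 (Asah1, the acid ceramidase). The acid lipase Lipa, with the smallest unadjusted p of this role, had a log2 fold change of 0.42 (SE 0.26, edgeR adjusted p = 0.981).

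Both regulators were low and overlapped. Tfeb was at 19.6, 15.8 and 15.7 CPM in WT and 29.1, 18.5 and 9.88 CPM in KO, so that the highest and the lowest value both came from KO libraries (log2 fold change 0.17, SE 0.51, edgeR adjusted p = 0.997). Tfe3 was at 28.0, 47.7 and 59.1 CPM in WT and 48.0, 69.6 and 46.0 CPM in KO (log2 fold change 0.28, SE 0.36, edgeR adjusted p = 0.997). The Tfe3 estimate was 0.04 without WT replicate 1, 0.07 without KO replicate 2 and 0.52 without the library labelled WT replicate 3, and the Tfeb estimate was -0.26 without KO replicate 1 and 0.48 without KO replicate 3. Both proteins act through entry into the nucleus, which RNA levels do not measure. Of the 6 members whose groups did not overlap, Lamp1 and Ctsd, which were higher, and Ctsl, which was lower, carry CACGTG in the windows described above, whereas Cd68, Gusb and Neu1 do not.

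A further 100 genes of the same organelle were read from the same fit in 5 lists chosen by function, and 97 were tested. By edgeR 0 of the 97 passed the adjusted p of 0.05, and DESeq2 and limma also called 0, while at an unadjusted p under 0.05 there were 4 higher and 1 lower, against 2.94% and 2.77% of all genes. Their median log2 fold change was 0.07, and 58.8% of the estimates were above 0, against 49.5% of all genes. The 17 subunits and accessory proteins of the V-ATPase, the proton pump that acidifies the lysosome, had 13 estimates above 0 and a median of 0.17. Atp6v0d1, the pump subunit with the smallest p, was at 128, 157 and 165 CPM in WT and 186, 225 and 240 CPM in KO, with no overlap (log2 fold change 0.53, SE 0.21, edgeR adjusted p = 0.772).

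The 33 tested other lysosomal hydrolases and membrane proteins had a median of 0.10 and ranged from -0.92 to 1.76. The upper end was Acp5, the tartrate-resistant acid phosphatase gene, named after its values were seen, with 0, 25 and 0 counts in WT and 7, 15 and 36 counts in KO (SE 1.54, edgeR adjusted p = 0.989), so its groups overlapped at low counts. Pla2g15, the lysosomal phospholipase A2, had the smallest p of all 5 lists and lay at 22.3, 28.4 and 37.9 CPM in WT and 60.1, 59.6 and 77.8 CPM in KO. It was higher in every KO library (log2 fold change 1.16, SE 0.33, unadjusted p = 0.00543, edgeR adjusted p = 0.465). As for Cd68, the highest WT value was that of the library labelled WT replicate 3.

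The 12 genes of sorting to the lysosome had a median log2 fold change of 0.05, and the one with the smallest p was the sorting receptor Sort1 at 63.7, 46.8 and 16.3 CPM in WT and 83.9, 61.6 and 81.4 CPM in KO, with overlapping groups (log2 fold change 0.83, SE 0.44, edgeR adjusted p = 0.932). The Sort1 estimate was 0.46 without the library labelled WT replicate 3 and 1.25 without WT replicate 1. The 20 tested genes of nutrient sensing and fusion had a median of 0.03, with 10 estimates above and 10 below 0. Mtor, the kinase that is activated on the lysosomal surface, was at 123, 115 and 146 CPM in WT and 197, 197 and 186 CPM in KO, without overlap (log2 fold change 0.60, SE 0.20, edgeR adjusted p = 0.676). The 15 autophagy genes had a median of 0.04 and all overlapped. Among them Map1lc3b, which encodes an LC3 protein of the autophagosome membrane, had the smallest p, at 541, 556 and 625 CPM in WT and 468, 420 and 543 CPM in KO (log2 fold change -0.27, SE 0.19, edgeR adjusted p = 0.989).

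**Figure D5:**
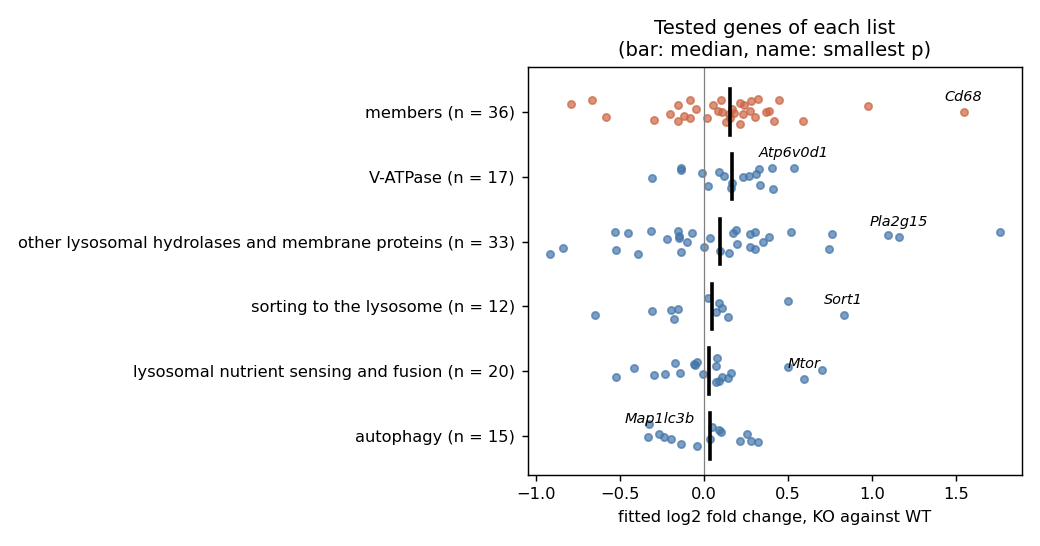
Fitted log2 fold change of KO against WT (horizontal axis) of each tested gene of the 36 members (orange) and of the 5 further lists (blue), with a bar at each median and the gene of smallest p named. The medians lie between 0.03 and 0.17, and the genes farthest to the right are Acp5 at 1.76, Cd68 at 1.55 and Pla2g15 at 1.16.

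Cd68 is also a marker of macrophages, so markers of mononuclear phagocytes were read in the same libraries. The 22 markers summed to 409, 545 and 598 CPM in WT and 454, 479 and 545 CPM in KO, with overlapping groups. Most of this was Lyz2, the lysozyme gene of myeloid cells, at 393 to 519 CPM in WT and 408 to 473 CPM in KO. Without Lyz2 the other 21 summed to 15.7, 43.3 and 79.1 CPM in WT and 45.6, 20.8 and 72.4 CPM in KO, again overlapping.

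Single markers of this list differed in both directions at low counts. Adgre1, which encodes the macrophage antigen F4/80, had 0, 0 and 0 counts in WT and 2, 11 and 20 counts in KO. Fcgr1, the high-affinity Fc receptor gene, had 0, 0 and 0 counts in WT and 10, 6 and 43 counts in KO, and Spic, a transcription factor gene of red pulp macrophages, had 6, 35 and 21 counts in WT and 60, 40 and 103 counts in KO. These 3 of the 22 were the list's genes that were higher in every KO library. In the opposite direction, Mpeg1, a pore-forming protein gene of macrophages, had 24, 44 and 9 counts in WT and 0 in each KO library. Only 7 of the 22 passed the filter on low counts. Of these 7, 1 was higher and 1 lower in every KO library, against 6.25% and 6.15% of all genes tested. Timd4 was at 0 in all 6 libraries, Cd14 had 3 counts in WT replicate 1 and 0 elsewhere, and Csf1r had 0, 13 and 39 counts in WT and 0, 19 and 10 counts in KO. A count of 0 allows a level of up to 0.367 to 0.923 CPM, depending on the library (a floor of 3 counts, counting error only). The part of such cells in the Cd68 difference was not tested.

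Markers of other cells also differed between libraries. The 14 granulocyte markers summed to 228 CPM in KO replicate 3, of which Mpo made 175 CPM, and to 2.94 to 16.0 CPM in the other 5 libraries, with Ltf, Mmp8 and Ly6g at 0 in all. Without KO replicate 3, the log2 fold change of Cd68 was 1.36 (edgeR adjusted p = 0.784). The 7 megakaryocyte and platelet markers summed to 148 to 226 CPM in WT and 263 to 344 CPM in KO. Most of this was Itga2b, at 76.0 to 165 CPM in WT and 162 to 258 CPM in KO, with overlapping groups. Itga2b encodes CD41, which the study measured on HSCs themselves. Of the 6 tested, 2 (Ppbp and Gp9) were higher in every KO library, against 6.25% of all genes tested, and the other 4 overlapped. The 15 skeletal muscle genes summed to 171 to 432 CPM in WT and 9.88 to 39.7 CPM in KO. Of these, 12 were lower in every KO library, against 6.15% of all genes tested. In edgeR, 3 of the 14 tested muscle genes passed the adjusted p, all lower in KO. They are among the 7 lower genes that passed over the whole table. The 8 erythroid markers summed to 43.8 to 114 CPM in WT and 30.8 to 64.7 CPM in KO. The 8 lymphoid markers summed to 44.1 to 67.7 CPM in WT and 54.1 to 73.2 CPM in KO, with Cd3e, Cd3d, Cd3g and Il7r at 0 in all. Cd34 and Cd48, whose proteins the gate excludes, and Flt3, a receptor gene of multipotent progenitors, together summed to 339 to 421 CPM in WT and 427 to 563 CPM in KO, mostly through Cd34. Their part in the values of the lysosomal genes was not tested.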

How the data were processed

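Double-sorted HSCs were sequenced. The labels name SMART-Seq v4 amplification, which does not mark strand, and the study's methods name a TruSeq kit. The submitters' processing notes name TopHat, HTSeq and mm10, with no versions. The authors deposited raw counts per gene and FPKM per gene. The deposited FPKM equalled count over length and column total within 0.00713% where no library had under 10 counts (10368 genes).

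Counts were fitted over all genes with edgeR 4.0.16 in R 4.3.3 (quasi-likelihood test, robust, TMM, its filter on low counts, no covariate), with Benjamini-Hochberg adjustment and a threshold of 0.05. Scripts were checked on simulated data. DESeq2 1.42.0, limma 3.58.1 on log2(FPKM + 1) and log2(FPKM + 0.1), other scalings, other filters, a replicate block and leaving out libraries were alternatives. Ratios were tested by exact permutation over samples. A zero count was read against a floor of 3 counts, and counting limits cover counting error only. Symbols under several identifiers went to the one with most counts. Gene positions came from GENCODE M21 and promoter sequences from RefSeq (GRCm38.p6).

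The members and lists were chosen with earlier results of these data known. Values in every library were printed for Cd68, Lamp1, Lamp2, Tfeb and Tfe3, for members whose groups did not overlap or with an unadjusted p under 0.05, for the 3 of highest mean FPKM, and for the gene of smallest p in each further list.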

Additional observations from a re-analysis of the deposited data

How the results depend on the processing

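Cd68 kept its direction under all 18 alternatives, with log2 fold changes from 1.26 to 2.02 when 1 library was left out, and DESeq2 (1.54, adjusted p = 0.0432) was the one alternative that called it. In the others, edgeR and limma gave adjusted p from 0.162 to 0.827. DESeq2 called 1 member, the other alternatives 0. The genes called over the whole table were 9, against 149 with DESeq2, 15 with limma on log2(FPKM + 1), and 5 to 11 when 1 library was left out (5 without WT replicate 1). The median of the other members stayed between 0.08 and 0.19, and the genes called in the pathway lists at 0. The Cd68 to Lamp1 ratio stayed between 0.70 and 1.54 (log2) and the Cd68 to Lamp2 ratio between 1.37 and 1.92 when 1 library was left out. Estimates near 0 changed sign: Lamp2 was -0.18 with replicates 1 and 2 only and -0.27 to 0.28 when 1 library was left out, Tfeb -0.26 to 0.48, and Cd63 0.020 with replicates 1 and 2 only and -0.18 to 0.037. The cause was not tested. Whether replicate numbers pair the samples was not settled. Deviations of a WT and a KO library correlated at 0.17, 0.0325 and 0.17 where the number was equal. Where the number differed, the correlations ran from -0.174 to 0.035. With the replicate block, 5 genes were called, no member among them, and Cd68 was at 1.64 (edgeR adjusted p = 0.274). At 3 samples a group an exact test cannot go below p = 0.1, which limits what single values can show.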
